A study of Homo sapiens with 8 samples.

Results

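The genes that encode the HP1 proteins and the enzymes that build and read HP1-bound chromatin were followed through peak lists of HP1a and HP1b. They were chosen by name, 10 of the 19970 protein-coding genes examined on chromosomes 1 to 22 and X: CBX1, CBX3, CBX5, SUV39H1, SUV39H2, SETDB1, EHMT1, EHMT2, TRIM28 and ATRX. The cells were MCF10A, a non-tumorigenic line of human breast epithelium, and HP1a or HP1b was mapped by ChIP-seq, in which chromatin is cross-linked, precipitated with an antibody to the protein and sequenced. There were 4 groups of 2 libraries: HP1a ChIP in cells with HP1b knocked down, HP1a ChIP in wild-type cells, HP1b ChIP in cells with HP1a knocked down and HP1b ChIP in wild-type cells. The labels name no other treatment. How the knockdowns were made, and whether the replicates were separate cultures, is not given in the sources used here, so p-values measure only the spread between these libraries. Peak lists hold no expression values, so neither the knockdowns nor the cell type could be checked against marker genes.

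HP1 proteins bind histone H3 methylated at lysine 9 through their chromodomain, and they recruit further factors through their chromoshadow domain. SUV39H1 and SUV39H2 methylate that lysine in pericentric heterochromatin, SETDB1 does so at repeats and zinc finger genes where TRIM28 brings it, and EHMT1 and EHMT2 act together as a pair on euchromatic genes. ATRX is a chromatin remodeler that helps place the histone variant H3.3 in heterochromatin and telomeres. In breast epithelium, as in other tissues, such chromatin is known for keeping repeats and genes of other lineages silent. All values here are on the genes as DNA that HP1 may occupy, not on what their proteins do.

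The lists differed in length. HP1a with HP1b knocked down had 19638 and 19092 peaks, against 134058 and 115564 for wild-type HP1a, and HP1b with HP1a knocked down had 159536 and 225991, against 239563 and 240090 for wild-type HP1b. The lists give no reads, so sequencing depth is unknown, and a gene without a peak is one where none is listed. Each gene was measured over its body with 1 kb on each side, called its window. Peaks covered 0.310 and 0.284% of all gene windows in the HP1b-knockdown HP1a libraries and 2.25 and 1.83% in wild-type HP1a. They covered 3.11 and 4.71% in the HP1a-knockdown HP1b libraries and 4.63 and 4.84% in wild-type HP1b.

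Transcription start windows showed where HP1 lay relative to promoters. RefSeq (GRCh38.p14) gave 12 such windows for 8 members, each with 250 bases before and 50 bases after a start, and none for TRIM28 and ATRX. A peak met only 1 of them, the upstream of the 2 windows of SUV39H1. Wild-type HP1b replicate 1 covered all 300 bases of it, wild-type HP1b replicate 2 covered 51 and HP1a-knockdown HP1b replicate 2 covered 104, while the other 5 libraries covered none. Of all 34961 windows, between 0.415 and 5.45% had a peak in a given library. The SUV39H1 windows are shown because they differ in this, and those of CBX1 and CBX5 because they belong to the genes of the precipitated proteins. They are read 5′ to 3′ on the gene's strand from RefSeq: chrX:48695304-48695603 and chrX:48696484-48696783 on the plus strand, chr17:48101137-48101436 and chr12:54280073-54280372 on the minus strand. Capitals mark the 51 bases inside peaks of both wild-type HP1b libraries.
SUV39H1 upstream window: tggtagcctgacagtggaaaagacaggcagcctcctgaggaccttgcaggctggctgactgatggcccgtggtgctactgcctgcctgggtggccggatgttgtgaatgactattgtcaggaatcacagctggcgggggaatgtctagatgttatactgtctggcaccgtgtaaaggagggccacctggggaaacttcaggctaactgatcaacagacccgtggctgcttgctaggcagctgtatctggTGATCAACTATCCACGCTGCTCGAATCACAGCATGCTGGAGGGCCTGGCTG
SUV39H1 downstream window: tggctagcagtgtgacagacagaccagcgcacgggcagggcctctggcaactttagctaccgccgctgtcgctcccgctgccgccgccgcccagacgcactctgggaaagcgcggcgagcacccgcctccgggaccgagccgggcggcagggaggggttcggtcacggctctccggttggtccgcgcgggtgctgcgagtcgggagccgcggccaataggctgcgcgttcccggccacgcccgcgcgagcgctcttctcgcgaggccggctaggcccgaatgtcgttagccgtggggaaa
CBX1 window: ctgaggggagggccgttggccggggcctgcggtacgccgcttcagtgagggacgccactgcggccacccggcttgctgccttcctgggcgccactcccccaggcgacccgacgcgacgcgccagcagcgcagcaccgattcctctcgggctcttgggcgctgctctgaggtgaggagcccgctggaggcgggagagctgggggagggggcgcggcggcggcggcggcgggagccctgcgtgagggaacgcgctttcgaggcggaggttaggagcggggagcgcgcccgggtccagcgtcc
CBX5 window: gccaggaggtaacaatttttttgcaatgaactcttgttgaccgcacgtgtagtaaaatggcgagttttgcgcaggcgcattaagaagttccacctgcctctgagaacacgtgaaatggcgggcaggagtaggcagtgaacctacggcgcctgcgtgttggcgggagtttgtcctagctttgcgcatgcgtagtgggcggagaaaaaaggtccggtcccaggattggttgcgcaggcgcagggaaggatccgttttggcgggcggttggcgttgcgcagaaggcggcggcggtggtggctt

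The covered SUV39H1 window is 56.3% G or C and holds 7 CG dinucleotides. The uncovered SUV39H1 window is 72% G or C with 42 CG dinucleotides, the CBX1 window 75.7% with 38 and this CBX5 window 57.3% with 25. Over all windows of the table the medians were 58.7% and 14. The other 8 member windows, at CBX3, CBX5, SETDB1, EHMT1, EHMT2 and SUV39H2, had no peak in any library.

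Members with a peak numbered 3 and 0 of 10 in HP1b-knockdown HP1a, against 6 and 4 in wild-type HP1a. There were 5 and 7 in HP1a-knockdown HP1b, against 6 and 7 in wild-type HP1b. Of all genes, 20.2 and 18.3% had a peak in HP1b-knockdown HP1a and 54.2 and 48.4% in wild-type HP1a. In HP1a-knockdown HP1b 42.7 and 58.4% of all genes did, and in wild-type HP1b 64.3 and 67.0%. Peaks over the members numbered 4 and 0 in the HP1b-knockdown HP1a libraries, against 31 and 17 in wild-type HP1a. They numbered 25 and 45 in the HP1a-knockdown HP1b libraries, against 59 and 63 in wild-type HP1b. ATRX held 2 and 0 of these in HP1b-knockdown HP1a, against 20 and 13 in wild-type HP1a, and 16 and 28 in HP1a-knockdown HP1b, against 37 and 37 in wild-type HP1b. ATRX thus held most of the member peaks in 6 of the 8 libraries, all but the HP1b-knockdown ones. The 10 windows together were covered over 0.177 and 0% in HP1b-knockdown HP1a, 2.02 and 1.02% in wild-type HP1a, 1.94 and 3.45% in HP1a-knockdown HP1b and 4.13 and 5.93% in wild-type HP1b. In 7 of the 8 libraries this was less than the share of all gene windows given above, and in wild-type HP1b replicate 2 it was more.

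No member had a peak in both HP1b-knockdown HP1a libraries, where 9.59% of all genes did. In wild-type HP1a EHMT1, SUV39H1 and ATRX had one in both libraries, 3 of 10 against 39.8% of all genes. In HP1a-knockdown HP1b SETDB1, EHMT1, SUV39H1 and ATRX did, 4 of 10 against 39.3%, and in wild-type HP1b these 4 and CBX1 did, 5 of 10 against 55.6%. Every list was also cut to its 19092 strongest peaks by −log10 p. The counts were then 0 of 10 in HP1b-knockdown HP1a, against 9.42% of all genes, and 0 in wild-type HP1a, against 9.79%. In HP1a-knockdown HP1b it was 2 (SETDB1 and ATRX) against 8.55%, and in wild-type HP1b 1 (ATRX) against 9.56%. Longer genes hold a peak more often, and 99.5% of genes over 200 kb had a peak in both wild-type HP1b libraries, against 23.5% of genes under 20 kb. ATRX and EHMT1 are in the longest class and SUV39H1, CBX3, EHMT2 and TRIM28 in the shortest.

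**Figure D1:**
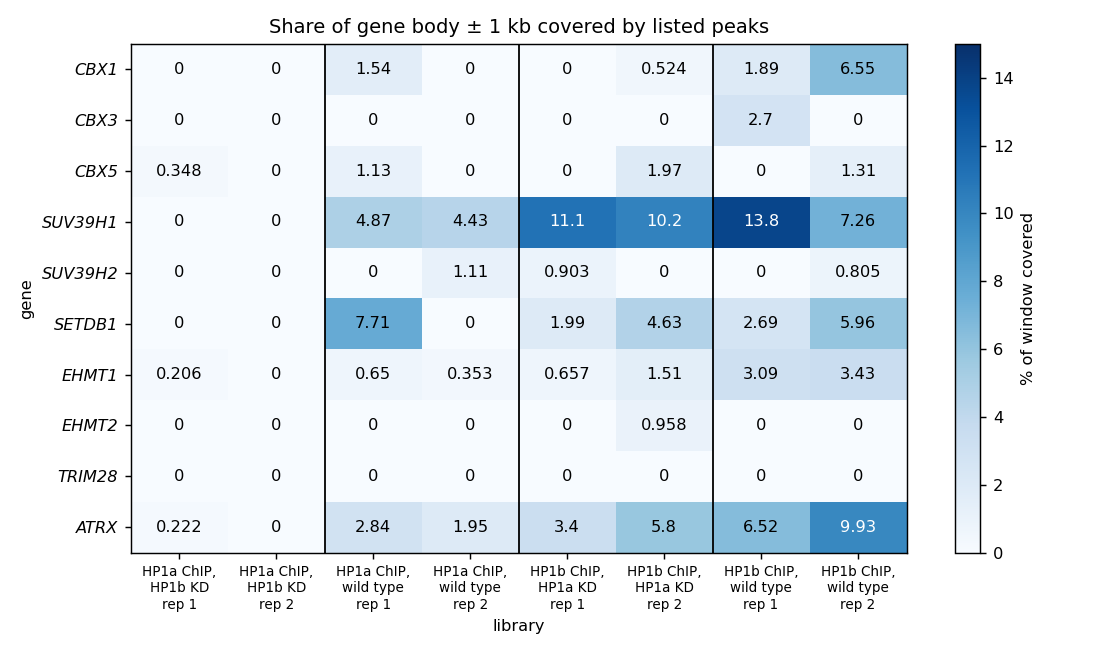
Percent of each gene's body with 1 kb on each side that listed peaks covered (colour and printed value), for the 10 genes (rows) in the 8 libraries (columns, knockdown left of wild type for each protein; KD, knockdown). SUV39H1, SETDB1, EHMT1 and ATRX were covered in all 4 HP1b libraries, the HP1b-knockdown HP1a libraries were at 0 for most genes, and TRIM28 was at 0 in every library.

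The genes of the HP1 proteins had between 0 and 4 peaks each in a library. CBX1 encodes HP1b, the protein knocked down in the HP1a experiment, on chromosome 17 from 48070059 to 48101478. It was covered over 0 and 0% in HP1b-knockdown HP1a, 1.54 and 0% in wild-type HP1a, 0 and 0.524% in HP1a-knockdown HP1b and 1.89 and 6.55% in wild-type HP1b. The wild-type HP1b libraries were thus above the HP1a-knockdown HP1b libraries, with 1 and 4 peaks against 0 and 1. The fitted log2 change of its share of covered bases in the HP1a knockdown was -1.93 (SE 0.75, n = 2 each), which did not pass (limma, Benjamini-Hochberg adjusted p = 0.20). None of the 7 places with a CBX1 peak was listed in more than 1 library. In wild-type HP1b its mean cover of 4.22% was above that of 66.6% of genes between 20 and 60 kb, and in HP1a-knockdown HP1b its 0.262% was above 33.0% of them.

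CBX5 encodes HP1a and lies on chromosome 12 from 54230942 to 54280122. Its cover was 0.348 and 0% in HP1b-knockdown HP1a, 1.13 and 0% in wild-type HP1a, 0 and 1.97% in HP1a-knockdown HP1b and 0 and 1.31% in wild-type HP1b. In every group 1 library had peaks and the other had none, so the groups overlapped. Mean CBX5 cover was above that of 48.9% of genes between 20 and 60 kb in HP1a-knockdown HP1b and 20.8% in wild-type HP1b. Of its 6 places, 1 was listed in more than 1 library, at 54256798 to 54257671, with a fold enrichment of 3.56 in HP1b-knockdown HP1a replicate 1 and 2.56 in HP1a-knockdown HP1b replicate 2. Some CBX5 peaks also lie in SCAT2, a long noncoding RNA gene within the CBX5 body.

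CBX3 encodes HP1γ, the third paralog. It had 2 peaks covering 2.70% of its window in wild-type HP1b replicate 1 and none in the other 7 libraries, and its mean in that group was above 54.0% of genes under 20 kb. Among those 7 libraries the nearest peak to its body was closest in HP1a-knockdown HP1b replicate 2, 4.15 kb away. It was farthest in HP1b-knockdown HP1a replicate 2, 80.8 kb away.

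SUV39H1, a gene of under 20 kb, had HP1b peaks in all 4 HP1b libraries and HP1a peaks in both wild-type ones. On chromosome X from 48695554 to 48709016, its window was covered over 0 and 0% in HP1b-knockdown HP1a, 4.87 and 4.43% in wild-type HP1a, 11.1 and 10.2% in HP1a-knockdown HP1b and 13.8 and 7.26% in wild-type HP1b. Both HP1b-knockdown HP1a libraries were below both wild-type HP1a libraries, while the HP1b groups overlapped. Its mean cover was above that of 90.5% of genes under 20 kb in wild-type HP1a, 92.3% in HP1a-knockdown HP1b and 90.0% in wild-type HP1b. The 500 kb on each side were covered over 1.09 and 1.96% in HP1b-knockdown HP1a, 4.88 and 4.17% in wild-type HP1a, 9.74 and 21.4% in HP1a-knockdown HP1b and 13.0 and 13.3% in wild-type HP1b, so HP1a peaks were still listed around the gene in the knockdown.

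Its peaks fell at 8 places, of which 3 were listed in at least 3 libraries. The widest shared place, 48708248 to 48710025 at the downstream end, was listed in wild-type HP1a replicate 2, both HP1a-knockdown HP1b libraries and wild-type HP1b replicate 1, with fold enrichments between 2.74 and 3.38. It is a chain of overlapping peaks with no base shared by all these libraries. The wild-type HP1b peak, 48708761 to 48709083, did not meet the wild-type HP1a peak. The place at the upstream start, 48694573 to 48695942, was listed in 3 HP1b libraries and no HP1a library, with folds between 2.69 and 3.17. The peaks of both wild-type HP1b libraries reached over the start, and that of HP1a-knockdown HP1b replicate 2 ended at 48695407, before it. The single wild-type HP1a peaks lay apart, at 48698367 to 48699119 in replicate 1 and at 48709253 to 48709937, past the annotated end, in replicate 2.

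SUV39H2, the paralog on chromosome 10, had 1 peak in each of 3 libraries, at 3 different places. It was covered over 0 and 0% in HP1b-knockdown HP1a, 0 and 1.11% in wild-type HP1a, 0.903 and 0% in HP1a-knockdown HP1b and 0 and 0.805% in wild-type HP1b. Part of its body is shared with DCLRE1C, a gene of DNA repair, but none of these peaks lay in the shared part.

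SETDB1, on chromosome 1 from 150926263 to 150964737, carried the strongest single peak of any member. Its cover was 0 and 0% in HP1b-knockdown HP1a, 7.71 and 0% in wild-type HP1a, 1.99 and 4.63% in HP1a-knockdown HP1b and 2.69 and 5.96% in wild-type HP1b. The 5 wild-type HP1a peaks were all in replicate 1, and the HP1b groups overlapped. From 5785 bases into the gene, HP1a-knockdown HP1b replicate 1 listed a peak of 204 bases, 150932048 to 150932251, with a fold of 5.32 and a −log10 p of 11.5. This fold was above that of 99.99% of the peaks in its list. Replicate 2 of that group listed a wider peak over the same place, 150930554 to 150932218, with a fold of 3.45. Wild-type HP1b replicate 2 listed 1 inside this wider peak, 150931226 to 150931461, with a fold of 3.23, which did not reach the peak of 204 bases. Wild-type HP1b replicate 1 and the HP1a libraries listed none in either peak, so no wild-type library listed a peak at the strongest place.

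EHMT1, on chromosome 9 from 137619005 to 137836127, had peaks in 7 of the 8 libraries. It was covered over 0.206 and 0% in HP1b-knockdown HP1a, 0.650 and 0.353% in wild-type HP1a, 0.657 and 1.51% in HP1a-knockdown HP1b and 3.09 and 3.43% in wild-type HP1b. The peaks numbered 1 and 0 in HP1b-knockdown HP1a, 3 and 2 in wild-type HP1a, 3 and 7 in HP1a-knockdown HP1b and 12 and 10 in wild-type HP1b, so both wild-type HP1b libraries, from the longest lists, stood above all 6 others. Even so, EHMT1 was above only 34.3% of genes over 200 kb in wild-type HP1b, and above 6.24% in wild-type HP1a. Of its 27 places with a peak, 19 were listed in a single library and 3 in 3 libraries. The widest of these 3, 137702476 to 137705253, was listed in both wild-type HP1b libraries and in HP1a-knockdown HP1b replicate 2.

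EHMT2, the partner of EHMT1 on chromosome 6, had 1 peak of 191 bases in HP1a-knockdown HP1b replicate 2, which covered 0.958% of its window, and no peak in the other 7 libraries. The pair of partner enzymes and the pair of SUV39H paralogs thus each had 1 gene with peaks in both libraries of 3 groups. The other gene of each pair had peaks in both libraries of no group. The genes differ in length: in wild-type HP1b 99.5% of genes over 200 kb, like EHMT1, had a peak in both libraries. It was 23.5% of genes under 20 kb, like EHMT2 and SUV39H1, and 64.8% of genes between 20 and 60 kb, like SUV39H2.

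**Figure D2:**
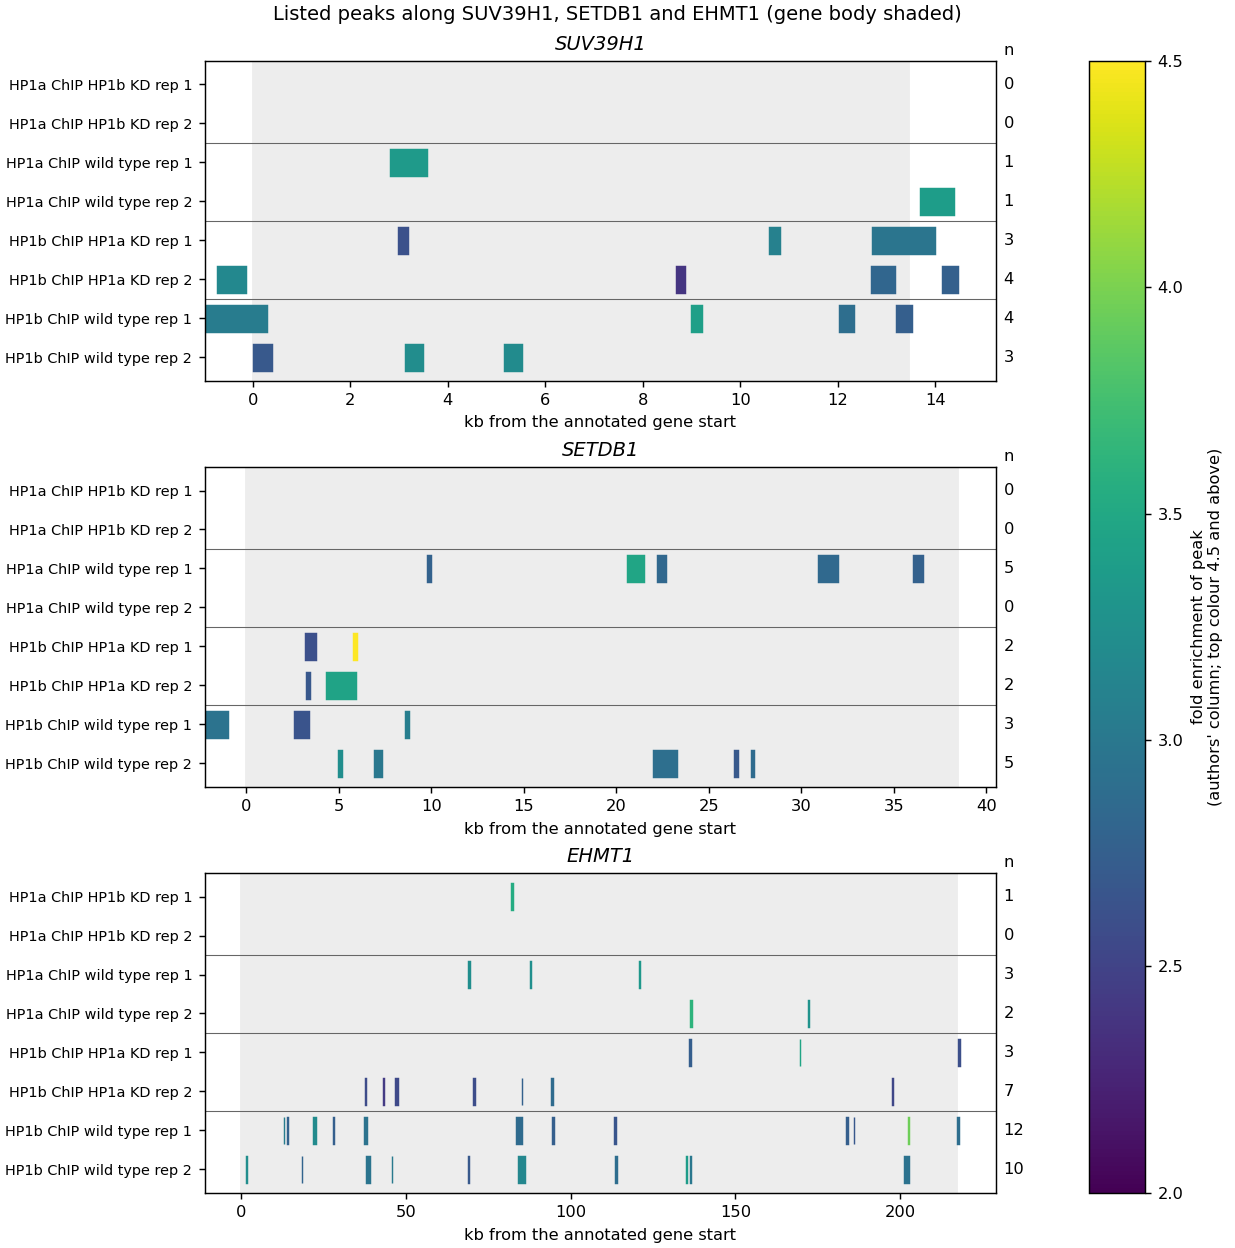
Listed peaks (bars, coloured by the authors' fold enrichment; the narrowest are drawn slightly wider than they are) along SUV39H1, SETDB1 and EHMT1 in the 8 libraries, against distance in kb from the annotated gene start; n is the number of peaks and KD stands for knockdown. In SUV39H1 a peak lies over the gene start in both wild-type HP1b libraries and just before it in HP1a-knockdown HP1b replicate 2, and the yellow bar in SETDB1 is the peak with a fold of 5.32.

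ATRX was the longest member, on chromosome X from 77504880 to 77786216, and the one with the most peaks. Its window was covered over 0.222 and 0% in HP1b-knockdown HP1a, 2.84 and 1.95% in wild-type HP1a, 3.40 and 5.80% in HP1a-knockdown HP1b and 6.52 and 9.93% in wild-type HP1b. Knockdown and wild type did not overlap for either protein, but how many of all genes separated in this way was not counted. The HP1b-knockdown HP1a lists covered less of all gene windows too, 0.310 and 0.284% against 2.25 and 1.83% in wild type. Wild-type HP1b cover was above that of 87.2% of genes over 200 kb, and HP1a-knockdown HP1b cover above 73.9%. The peaks were modest and of like height, with median folds between 2.79 and 3.49 in the 7 libraries that had any, and a highest fold of 4.37 in wild-type HP1a replicate 1.

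The ATRX peaks merged into 78 places, 40 of them listed in a single library and 10 in at least 4. A single place, 77564036 to 77565848, was listed in 6 libraries, all but the HP1b-knockdown HP1a ones, with folds between 2.72 and 3.20. Of the 4 places listed in 5 libraries, 77755553 to 77757968 was the only one that included HP1b-knockdown HP1a, in replicate 1. Wild-type HP1b replicates met each other at 21 of 37 ATRX peaks in each library, 56.8%, against 35.1 and 35.2% over the whole lists. In HP1a-knockdown HP1b it was 7 of 16 and 7 of 28, 43.8 and 25%, against 48.7 and 34.1% over the lists. In wild-type HP1a it was 1 of 20 and 1 of 13, 5 and 7.69%, against 18.4 and 21.4%. ATRX was thus above the lists in wild-type HP1b and below them in HP1a-knockdown HP1b and wild-type HP1a. With the gene cut into 3 stretches of equal length from its lower coordinate, wild-type HP1b peaks numbered 9, 7 and 21 in replicate 1 and 11, 7 and 19 in replicate 2, so the stretch of highest coordinates held the most in both. The HP1a-knockdown HP1b libraries had 7, 4 and 5 and 6, 8 and 14.

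**Figure D3:**
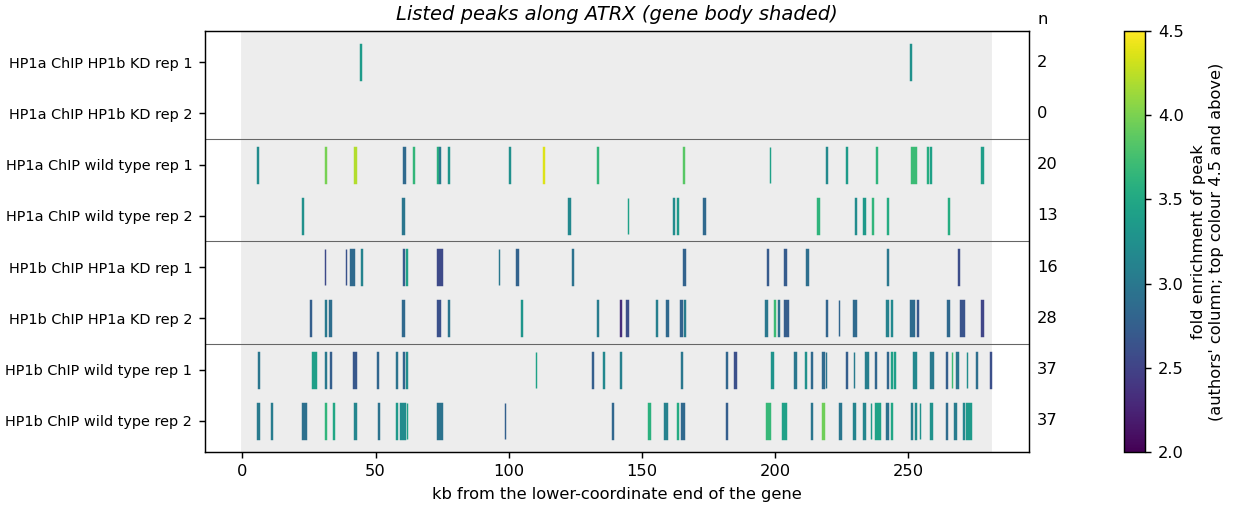
Listed peaks (bars, coloured by the authors' fold enrichment; the narrowest are drawn slightly wider than they are) along ATRX in the 8 libraries, in kb from the lower-coordinate end of the gene; n is the number of peaks and KD stands for knockdown. Peaks number 2 and 0 in HP1b-knockdown HP1a, 37 in each wild-type HP1b library, and they are spread over the whole gene.

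TRIM28, the corepressor that brings SETDB1 to its targets, had no peak in any of the 8 libraries. Many genes under 20 kb had none either: 90.1% in both HP1b-knockdown HP1a libraries, 66.9% in wild-type HP1a, 64.8% in HP1a-knockdown HP1b and 47.2% in wild-type HP1b. Its gene of 8.65 kb with the flanks, on chromosome 19, sits among zinc finger genes that had many. The nearest peak was 100.5 and 107.6 kb from the gene in HP1b-knockdown HP1a, 50.6 and 70.7 kb in wild-type HP1a, 8.01 and 5.78 kb in HP1a-knockdown HP1b and 6.46 and 9.04 kb in wild-type HP1b. The 500 kb on each side were covered over 1.48 and 1.28% in HP1b-knockdown HP1a, 4.32 and 4.19% in wild-type HP1a, 12.4 and 16.8% in HP1a-knockdown HP1b and 11.1 and 10.7% in wild-type HP1b. HP1b peaks were thus listed within 10 kb of the gene, and HP1a peaks no nearer than 50.6 kb. Of the 24 protein-coding genes in that span, 17 have zinc finger names (ZNF, ZSCAN, ZBTB or MZF), and 12 of these had a peak in both wild-type HP1b libraries, against 0 of the other 7. ZNF274, whose protein binds other zinc finger genes and brings in TRIM28 and SETDB1, was the most covered of them, at 66.7 and 79.4% in HP1a-knockdown HP1b and 55.2 and 63.6% in wild-type HP1b.

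ATRX, CBX3, CBX5, EHMT2, SUV39H2 and TRIM28 were covered less than the 500 kb on each side in all 8 libraries, as were 35.1% of all genes. A gene without a listed peak is below any covered surroundings, and CBX3, EHMT2, SUV39H2 and TRIM28 had none in most libraries. EHMT1 was the only member covered more than its surroundings in both wild-type HP1b libraries, 3.09 and 3.43% against 2.11 and 2.54%, as were 15.3% of all genes. For ATRX the gap was wider in HP1a-knockdown HP1b, 3.40 and 5.80% in the gene against 12.9 and 14.0% around it, than in wild-type HP1b, 6.52 and 9.93% against 11.9 and 11.3%. This difference between groups was not tested.

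**Figure D4:**
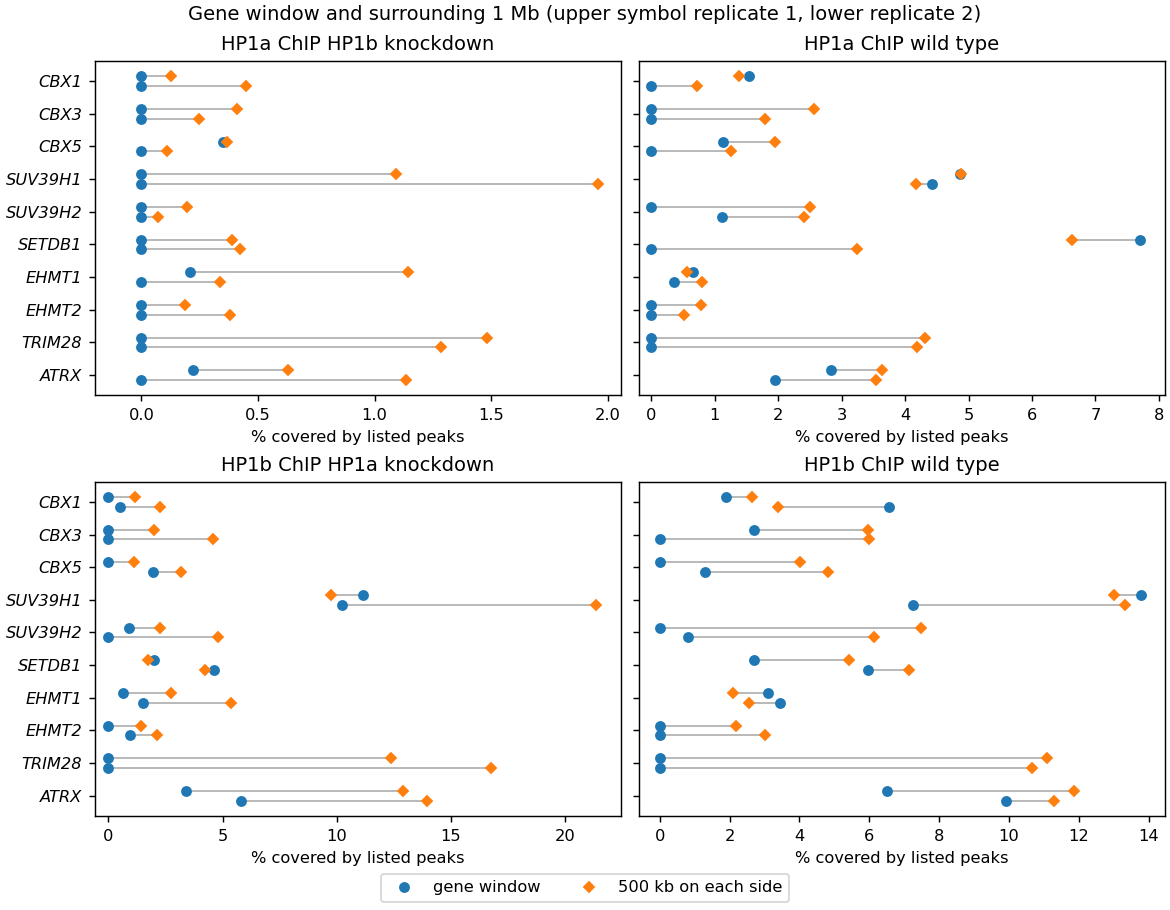
Percent covered by listed peaks for each gene's window (circles) and for the 500 kb on each side of it (diamonds), in the 4 groups; for each gene the upper symbols are replicate 1 and the lower replicate 2, and each panel has its own axis. The TRIM28 window is at 0 while its surroundings reach 16.8% in HP1a-knockdown HP1b.

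The comparisons asked whether a protein's share at a gene changed when its paralog was knocked down. They used relative coverage, a gene's covered bases per Mb of all covered bases of the library. Log2 values with a pseudocount were fitted with limma over all genes with listed peaks in 2 or more of the libraries compared, with a threshold of 0.05 on the adjusted p. This scaling did not level lists of unlike length. For HP1a with HP1b knocked down the median log2 change over the 8877 genes fitted was -1.22. With equal peak numbers it was -0.0049 over 4052 genes, and limma called 0 of them.

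For HP1a with HP1b knocked down against wild type, 4 members could be fitted and 1 was lower, SUV39H1, where 28.9% of all 8877 genes fitted were lower and 1.79% higher. SUV39H1 relative coverage was 0 and 0 in the knockdown, against 10.8 and 11.3 bases per Mb in wild type (limma, adjusted p = 0.0248). Because both knockdown libraries are at 0, the fitted log2 change of -1.73 (SE 0.18) depends on the pseudocount and bounds nothing. The gene entered the fit through its wild-type peaks alone, so it could only be called lower. The call rests on 1 peak per wild-type library at different places, and the gene could not be fitted without its flanks. It was lost with a larger pseudocount (adjusted p = 0.0594) and without knockdown replicate 1 or 2 (0.0805 and 0.0838), the range over its alternatives being 0.0152 to 0.487. Without either wild-type library the gene had too few libraries with a peak to be fitted. SUV39H1 was also the only 1 of the 3 genes with HP1a peaks in both wild-type libraries that had none in both knockdown libraries, where 47% of all such genes had none. Of these 3 genes 0 had peaks in both knockdown libraries (21.7% of all such genes), and of the 3 members with no wild-type HP1a peak 0 gained peaks in both (0.728%).

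ATRX relative coverage of HP1a was 63.7 and 0 bases per Mb with HP1b knocked down and 115.1 and 91.5 in wild type. The log2 change was -2.57 with an SE of 1.58 (limma, adjusted p = 0.339), against a median of -1.22 over all genes fitted. Which knockdown replicate was used decided this value. Without replicate 1, which had the peaks, the change was -4.68, the lone knockdown library left being at 0. Without replicate 2 it was -0.65. The medians over all genes fitted were then -1.62 and -1.51. With the 2 HP1a groups cut to the same list length it was -0.71 (limma, adjusted p = 0.938), and over the alternatives the adjusted p reached 1.00. With no scaling to total coverage ATRX was lower too, by -3.99 (limma, adjusted p = 0.0301). In that setting 4593 of all 8877 genes fitted were called lower and 48 higher, with a median change of -2.15. EHMT1 gave -0.44 (SE 1.42, limma adjusted p = 0.867) and CBX5 0.40 (SE 1.06, limma adjusted p = 0.837), each with a single peak in knockdown replicate 1.

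For HP1b with HP1a knocked down against wild type, 7 members could be fitted and none passed, as for the 13100 genes fitted, of which 0% were called higher and 0% lower by limma. At an unadjusted p under 0.05 there were 2 members of 7, EHMT1 and CBX1, and 3263 of all genes. EHMT1 relative coverage was 12.2 and 20.1 in the knockdown, against 42.8 and 47.9 bases per Mb in wild type. Its log2 change was -1.41 (SE 0.41, n = 2 each, limma adjusted p = 0.145). Without knockdown replicate 2 it was -1.73, where the median over all genes fitted was -0.84. Over its alternatives the EHMT1 adjusted p (limma) reached 0.959. ATRX relative coverage was 81.3 and 99.7 in the knockdown, against 116.8 and 179.1 bases per Mb in wild type, a log2 change of -0.67 (SE 0.29; limma, adjusted p = 0.235). Both genes were lower in both knockdown libraries than in either wild-type library. How many of all genes fitted were lower in this way was not counted, and their median log2 change was -0.48. SETDB1 at -0.19, SUV39H2 at 0.13, CBX5 at 0.18 and SUV39H1 at 0.22 lay within their SE of no change. Of the 5 members with HP1b peaks in both wild-type libraries, 0 had none in both knockdown libraries (14.2% of all such genes), and 4 kept peaks in both (63.6%), CBX1 being the exception. EHMT2 and TRIM28, without a wild-type HP1b peak, did not gain peaks in both knockdown libraries, 0 of 2 against 4.21% of all such genes.

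For HP1b against HP1a in wild-type cells, 7 members could be fitted and none passed, nor did any of the 13089 genes fitted (0% higher and 0% lower by limma). At an unadjusted p under 0.05 there was 1 member, EHMT1, and 1665 of all genes. EHMT1 relative coverage was 42.8 and 47.9 bases per Mb for HP1b, against 20.4 and 12.8 for HP1a, a log2 difference of 1.34 (SE 0.45; limma, adjusted p = 0.360). ATRX had 116.8 and 179.1 for HP1b against 115.1 and 91.5 bases per Mb for HP1a, a difference of 0.48 (SE 0.30; limma, adjusted p = 0.586). SUV39H1 had 13.5 and 7.15 for HP1b against 10.8 and 11.3 for HP1a, a difference of -0.12 (SE 0.76; limma, adjusted p = 0.973). EHMT1, SUV39H1 and ATRX, the 3 genes with HP1a peaks in both libraries, also had HP1b peaks in both, as did 92% of all such genes, and 0 of the 3 had no HP1b peak (1.47%). Of CBX3, EHMT2 and TRIM28, which had no HP1a peak, 0 had HP1b peaks in both libraries (17.9% of all such genes). In ATRX, 13 of 20 and 6 of 13 HP1a peaks were met by an HP1b peak, 65 and 46.2%, against 50.6 and 52.9% over the whole lists. In the other members it was 3 of 11 and 1 of 4, 27.3 and 25%.

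The effect of the HP1a knockdown on HP1b minus that of the HP1b knockdown on HP1a was tested for the same 7 members as an interaction, and none passed, nor any of 14464 genes fitted (0% higher and 0% lower by limma). At an unadjusted p under 0.05 there were 1 member, SUV39H1, and 2383 of all genes. For SUV39H1 the interaction was 2.54 (SE 0.84; limma, adjusted p = 0.210), and for ATRX 2.30 (SE 1.93; limma, adjusted p = 0.657). The ATRX value was 4.64 without HP1b-knockdown HP1a replicate 1 and near 0 without replicate 2 of that group. The medians over all genes fitted were then 0.53 and 0.44.

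**Figure D5:**
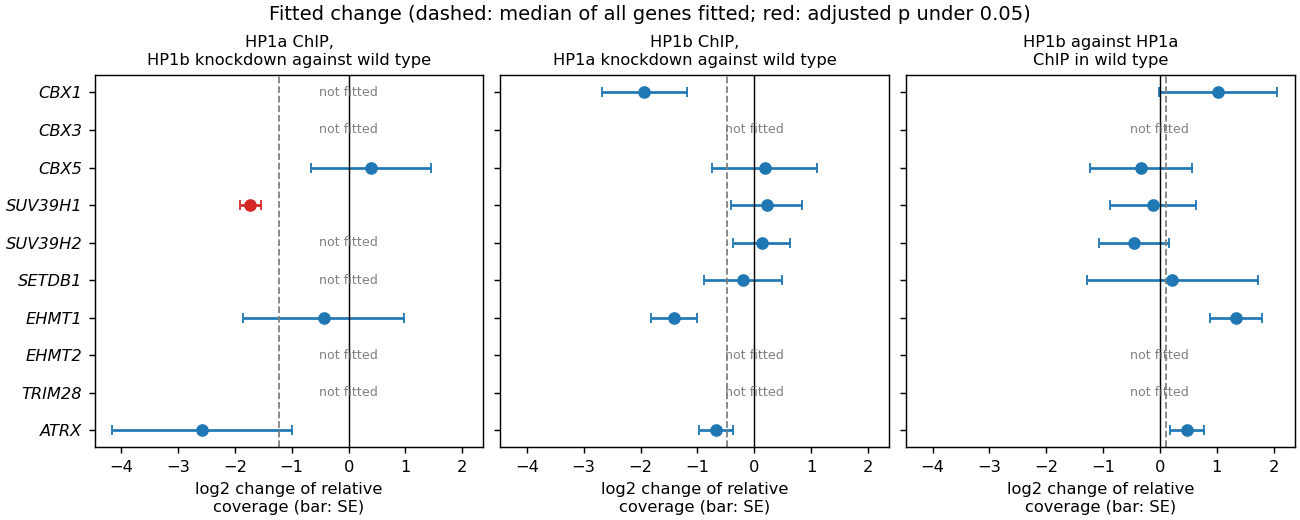
Fitted log2 change of relative coverage (points; bars are the SE from limma, n = 2 libraries in each group) for the members in the 3 comparisons; the dashed line is the median of all genes fitted, and genes with a peak in fewer than 2 libraries are marked as not fitted. SUV39H1 in HP1b-knockdown HP1a (red) is the only value past the threshold, and both its knockdown libraries are at 0.

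A further 40 genes of heterochromatin, such as DNA methyltransferases, histone demethylases, lamins and subunits of the HUSH complex, were listed for comparison. In the HP1b-knockdown HP1a libraries 4 of 40 had a peak in both, against 19 in wild-type HP1a, and in the HP1a-knockdown HP1b libraries 13 did, against 21 in wild-type HP1b. For HP1a with HP1b knocked down 9 of 19 fitted genes were lower and 0 higher (limma), where 28.9% of all genes were lower and 1.79% higher, with a median log2 change of -1.06 beside -1.22 over all genes. All 9 had an HP1a cover of 0 in both knockdown libraries. They were fitted through their wild-type peaks alone and could only be called lower, so their count is no separate support for a change. Over all genes the lower calls numbered 2567, and 0 with the larger pseudocount or the replicate block and 2 without either wild-type library. KDM4C, a demethylase of histone H3 at lysine 9, had 0 and 0 HP1a peaks with HP1b knocked down and 23 and 17 in wild type (limma, adjusted p = 0.0248). DNMT1, the maintenance DNA methyltransferase, had 0 and 0 in the knockdown against 1 and 1 in wild type (limma, adjusted p = 0.0248), so this call, like that of SUV39H1, rests on 1 peak in each wild-type library. In the other 2 comparisons limma called 0 of 27 and 0 of 29 genes, and 5 and 4 of them had an unadjusted p under 0.05. KDM4C had 6 and 17 HP1b peaks in the HP1a knockdown against 36 and 44 in wild type, and ATF7IP, the partner of SETDB1, had 15 and 17 against 12 and 15.

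Genes most like a member were found by the distance between log2 relative coverages over the 8 libraries, among 10365 genes with a peak in at least 4 of them. The nearest to CBX1 were SLC25A33 at 0.378 and KCNV2 at 0.379, where the median gene was at 5.70. The nearest to SUV39H1 were IGSF22 at 0.360 and MOGAT1 at 0.40, and to ATRX UBE2E2 at 0.835 and ACBD6 at 0.996. For SETDB1 they were WDR17 and RBPMS2, for EHMT1 STAU1 and WNT3, and for CBX5 GPR37 and GAPDHS. No other member of the 10 was among the genes named. CBX3, SUV39H2, EHMT2 and TRIM28 had a peak in fewer than 4 libraries and could not appear. With so few of the 10365 genes named for each member, this absence cannot decide whether members were alike.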

How the data were processed

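The deposited files are 1 broad peak list per library (8 libraries), unpooled, with each peak's start and end, a score (its −log10 q multiplied by 10), a fold enrichment (ratio), a −log10 p and a −log10 q, all as the authors made them. Per the submitters' processing notes, Trimmomatic, Bowtie2, SAMtools and MACS3 were used on hg38; of versions, settings and an input library, nothing is given in the sources used here. The fold and −log10 values are the authors' own and were used only to describe and filter peaks.

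From these, peaks on chromosomes 1 to 22 and X were merged within a library and laid on RefSeq gene bodies (GRCh38.p14) with 1 kb on each side. The annotation gave bounds only, so exons and introns are not reported. Relative coverage was fitted with limma 3.58.1 in R 4.3.3 (variance trend, two-sided) on log2 with a pseudocount at the 10th percentile of values above 0, for genes with a peak in at least 2 libraries compared, adjusted by Benjamini-Hochberg over all of them. The fit was also run on simulated normal values, with spread capped at the median spread of the genes. These held no groups without peaks, so that run does not cover calls such as that of SUV39H1. Alternatives were a pseudocount multiplied by 4, no filter, no scaling, equal peak numbers, −log10 p of at least 4, flanks of 2 kb or none, replicate overlap, a replicate block, all 8 libraries in a single fit and each library left out. All 10 members are named. Of the 40 other genes, those with the highest cover or, by moderated t, the strongest calls are named, up to 2 in each direction. Members and lists were chosen with earlier results of these data known.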

Additional observations from a re-analysis of the deposited data

How the results depend on the processing

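Peak lists limit all values here: without reads no counting error could be set, the lists stop at different strengths, and most member peaks were listed in 1 library of 2. SUV39H1 was the 1 member called in HP1b-knockdown HP1a against wild type. The count of members called there became 0 with the larger pseudocount, no filter, equal peak numbers, −log10 p of at least 4, no flank or a replicate block, 2 with no scaling, and 0 to 1 without single libraries. SUV39H1 could not be fitted with equal peak numbers, at −log10 p of at least 4 or with no flank. In these settings 1, 2 and 3 members were fitted. Over all genes the lower calls were also 0 with the larger pseudocount, no filter, equal peak numbers, −log10 p of at least 4 or the block. With no flank they were 2475 of 8504 genes fitted, and with no scaling 4593 of 8877. The SUV39H1 adjusted p (limma) was 0.0594 with the larger pseudocount, 0.487 with no filter and 0.0765 with the block. Without single libraries 0 to 1 members were called in the HP1b comparison and 0 to 1 for the interaction. Over all genes HP1a calls went between 0 and 4641 (2726 as reported, 19 with the block, 26 to 3506 without single libraries). For HP1b they went between 0 and 450 (0 as reported, 450 with the block, 151 to 2125 without single libraries), for wild-type HP1b against HP1a between 0 and 76 (2 to 370) and for the interaction between 0 and 738 (0 to 1061). Replicate numbers did not pair the libraries: the correlations of their deviations were 0.02, 0.04 and -0.01.

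Members with a peak in both wild-type HP1a libraries (3) became 0 with equal peak numbers, 1 at −log10 p of at least 4, and 1 where replicate peaks had to share 1 base or 50%. With no flank it was 2, SUV39H1 being lost. For HP1a-knockdown HP1b (4) they became 2, 2, 3 at 1 base and 1 at 50%. For wild-type HP1b (5) they became 1, 1, 3 at 1 base and 2 at 50%. With equal peak numbers the shares of all genes were 9.79% in wild-type HP1a, 8.55% in HP1a-knockdown HP1b and 9.56% in wild-type HP1b. At −log10 p of at least 4 these shares were 18.1, 16.3 and 15.5%. With only 1 library required the counts were 0 to 3 for HP1b-knockdown HP1a and 4 to 6 for wild-type HP1a. They were 5 to 7 for HP1a-knockdown HP1b and 6 to 7 for wild-type HP1b. The shares of all genes were then 18.3 to 20.2%, 48.4 to 54.2%, 42.7 to 58.4% and 64.3 to 67.0%, in the same order.

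Signs turned, never past the threshold, as follows. At −log10 p of at least 4: EHMT1 0.55 (HP1a) and -0.60 (wild type), SETDB1 1.79 and SUV39H1 -0.036 (HP1b), SUV39H1 -0.033 (interaction). With no scaling: CBX5 -0.50 (HP1a), 0.073 (wild type) and 0.69 (interaction), SUV39H1 0.88 (wild type), EHMT1 0.018 (interaction). With equal peak numbers: SETDB1 0.97 (HP1b), CBX1 -0.37 and SUV39H1 0.11 (wild type), ATRX -0.98 (interaction). With no flank: SUV39H1 -0.072 (HP1b) and 0.68 (wild type). With the larger pseudocount: SETDB1 -0.19 (wild type). Without single libraries EHMT1 ran between -2.30 and 1.29 and CBX5 between -0.28 and 1.61 (HP1a). For HP1b SETDB1 ran between -0.67 and 0.29, SUV39H2 between -0.24 and 0.62, CBX5 between -0.60 and 1.20 and SUV39H1 between -0.16 and 0.59. In wild type SETDB1 ran between -1.87 and 2.35, CBX5 between -1.41 and 0.33 and SUV39H1 between -0.47 and 0.23. For the interaction SETDB1 ran between -0.19 and 4.03, EHMT1 between -2.74 and 1.44 and CBX5 between -1.77 and 1.19. CBX1 ran between -1.74 and 0.19 and ATRX between -0.0028 and 4.64, the top being without HP1b-knockdown HP1a replicate 1. The cause was not tested. Of the other fits to members, 173 kept direction and side of the threshold, and 91 did so without single libraries.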
